A study of Drosophila melanogaster with 28 samples.

Results

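The translation initiation, elongation and release factors of Drosophila melanogaster were followed through germline stem cell differentiation in 46 genes, of 13884 genes that had a value in both deposited tables. The members were all genes whose symbol starts with eIF, eEF or eRF, apart from the cap-binding eIF4E genes, and every one of them had a value at all 7 time points. The choice rests on symbols and on no measured value, but it was made with earlier results of these data known. The material was whole adult ovary from w females. All of them, the control at no HS included, were nosP-GAL4-NGT40/+ on one chromosome and bam86 on both copies of another, of which 1 also held the heat-shock bam transgene P{w[+mC]=hs-bam.O}11d, and their age is not given in the labels. Without heat shock the germline of such ovaries stays as stem cell-like cells, and the heat shock (37C for 1 h, then 34C for 2 h, then back to 25C) supplies a pulse of Bam that sends them through the cyst divisions. The groups were no HS and 0.5, 5, 9, 18, 28 and 38 h after heat shock (AHS), with 2 RNA-seq and 2 Ribo-seq libraries at each time point, 28 in all. The study assigned no HS to stem cell-like cells and 5 to 38 h AHS to successive stages, from the cystoblast to the cyst after its last division. Stages were more mixed at the later time points. The heat-shock promoter acts in all cells of the ovary, so somatic cells received the same treatment.

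Translation of an mRNA starts when eIF2 brings the initiator tRNA to the small ribosomal subunit, with eIF1, eIF1A, eIF5 and the large eIF3 complex bound to it. The helicase eIF4A and its scaffold eIF4G load this assembly onto the mRNA, where it scans to the start codon, and eIF5B joins the large subunit. eEF1alpha then delivers each aminoacyl-tRNA, the eEF1B subunits recharge eEF1alpha with GTP, eEF2 moves the ribosome along by a codon, and eRF1 with eRF3 releases the finished protein. In the fly ovary, growth of the germline and the choice between stem cell and cyst both depend on protein synthesis, and Bam itself is known as a translational repressor.

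Since several of these proteins decide where translation starts, the start codons of some of the factors that the results turn on are shown first. Those of eEF1beta and eIF6 are not shown. The bases come from the Release 6 genome of NCBI at the start codon that most transcripts of an Ensembl annotation use. The start codon and the base 3 before it are in capitals.
eIF1: ttttattgtCgtATGtccat
eEF1gamma: ggcgaatccAccATGgtgaa
eEF1delta: gaaagactaAaaATGaaagt
eEF2: catacatccAaaATGgtagg
eIF4G1: tacacatacGtaATGcaaca
eIF3i: atataatacAaaATGgtgcg
eRF1: gcaacgagcAaaATGtctgg
They lie on chromosome 3L from 3223487 to 3223506 (plus strand, eIF1), 3R from 29220285 to 29220304 (plus, eEF1gamma), 2L from 10232561 to 10232580 (plus, eEF1delta), 2L from 21682034 to 21682053 (minus, eEF2), 4 from 929892 to 929911 (minus, eIF4G1), 2L from 4967686 to 4967705 (minus, eIF3i) and 3L from 20349109 to 20349128 (plus, eRF1). An A or a G at that position is the usual context of a start codon in animals. Of 45 members with an ATG start codon that no intron splits, 34 (75.6%) read ANNATG on the gene's strand, against 64.1% of 13226 genes in both tables. The genome was read unspliced, so where an intron ends just before the start codon the base is not that of the mRNA. GNNATG stood at 6 members (13.3%, against 24.8% of all genes), CNNATG at 5 (11.1% against 6.08%) and TNNATG at none (0.00% against 4.95%). eIF1 is among the 5, with eIF2D, eIF3f2, eIF3g1 and eIF4G2. In yeast and mammals the start codon of eIF1, the factor that rejects poor contexts, is itself known to lie in a poor one.

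The first bases of the mRNA were also read, because ribosomal protein mRNAs of the fly are known to begin in a run of pyrimidines. A start site of eEF2, eIF3f1 and eEF1gamma is given from 10 bases before the annotated first base to 18 bases after it, with the letters CTTT in capitals where its C lay within 5 bases of the start.
eEF2: tgcagcgcctcgctCTTTcctgtcgaaac
eIF3f1: actatcgataggccCTTTtcttgcatccc
eEF1gamma: ctgcagccctgtttccgtcccttctcttc
They lie on chromosome 2L from 21682098 to 21682126 (minus strand), 3R from 4714164 to 4714192 (minus) and 3R from 29220162 to 29220190 (plus). CTTT was searched on the gene's strand at every annotated start site of a gene. It was found in 7 of 46 members (15.2%), namely eEF1alpha1, eEF2, eEF5, eIF3f1, eIF3i, eIF3m and eIF4A. Among the cytosolic ribosomal proteins 57 of 91 genes (62.6%) held it, and among all genes 1064 of 13279 (8.01%).

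The deposited values were FPKM, that is fragments scaled to length and to the size of the library, by a normalization that is not given. There was 1 value for each gene and time point, estimated over both replicates together. Its 95% bounds lie 2 standard errors from the value. No value of a single library was used, so the spread between replicates is unknown here, no p-value is given, and the depth of the libraries cannot be read from the tables. For the members over 10 FPKM the half-width of the bounds had a median of 19.5% of the FPKM for RNA-seq and of 21.9% for Ribo-seq. A member was called changed against no HS when the values differed by more than 1.6-fold, with over 10 FPKM at either time point, and for calls of members in the RNA-seq and the Ribo-seq it is said whether the bounds overlapped. Translation efficiency (TE) is the Ribo-seq FPKM divided by the RNA-seq FPKM. The germline markers vas, aub, nos and bgcn summed to between 353 and 428 FPKM in the RNA-seq over the 7 time points and to between 554 and 716 FPKM in the Ribo-seq. Within this sum nos fell from 83.3 (no HS) to 28.5 FPKM (9 h AHS) in the RNA-seq and from 112 to 11.9 FPKM in the Ribo-seq. The RNA-seq value of bgcn fell from 40.5 (no HS) to 11.4 FPKM (28 h AHS). vas stayed between 184 and 211 FPKM in the RNA-seq and aub between 85.7 and 100 FPKM. Markers of follicle and escort cells (tj, Fas3, Wnt4, zfh1 and ptc) summed to between 295 and 409 FPKM in the RNA-seq and between 644 and 904 FPKM in the Ribo-seq. None of these 9 genes was listed at 0. Both germline and soma were thus in every sample, and in such bulk samples fewer cells of a type and less RNA per cell cannot be told apart. bam, which is the gene that the heat shock supplies, was at 23.7 FPKM in the RNA-seq at no HS and at 1053 FPKM at 0.5 h AHS.

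Over 10 FPKM was reached by 39 of the 46 members in the RNA-seq and by 40 in the Ribo-seq, and 39 passed in both. The other 7 were the duplicate genes eEF1alpha2, eIF3d2, eIF3f2, eIF3g2 and eIF4H2, the selenocysteine elongation factor eEFSec, and eIF4B, and these are described further on. The mRNA levels stayed within 1.6-fold. Of the 39 members compared in the RNA-seq, 0 were past 1.6-fold against no HS at any time point from 5 to 38 h AHS, where 5.84% of all 6441 genes compared were. With bounds that do not overlap it was again 0 members, against 4.35% of all genes. The ratio of the highest to the lowest RNA-seq value over no HS and the 5 later time points had a median of 1.21 over the 39 members, and of 1.25 over 5997 genes over 10 FPKM in both assays.

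A few members were past the limit in footprints. In the Ribo-seq 3 of 40 members were past 1.6-fold at any of the 5 later time points (eEF1beta, eEF1gamma and eIF4B, all lower), against 21.9% of 6442 genes. For eEF1beta and eEF1gamma the bounds did not overlap, and 9.78% of all genes met that demand. The highest to lowest ratio in the Ribo-seq had a median of 1.32 over the 39 members and of 1.47 over the 5997 genes. In TE 4 of 39 members were past 1.6-fold (eEF1beta, eIF3i, eIF6 and eRF1, all lower), against 19.2% of 6360 genes. After rescaling all time points to 1 median FPKM, 2 of them, eIF3i and eRF1, were still past the limit. The RNA-seq loci of eIF3i and eRF1 also hold another gene, CG34125 and CG5618.

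**Figure D1:**
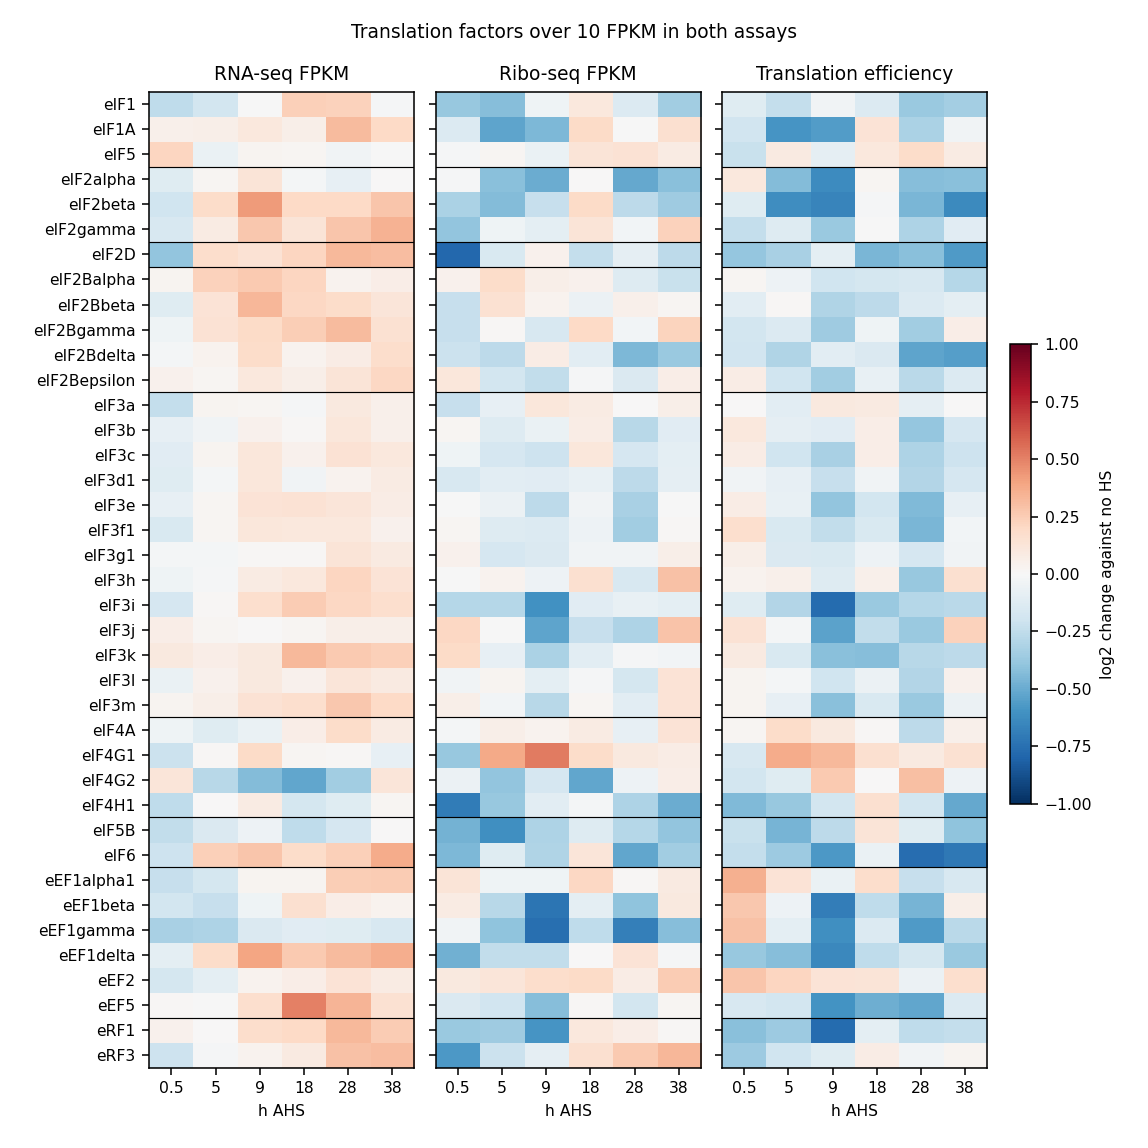
The log2 change against no HS of the 39 members over 10 FPKM in both assays (rows, grouped by role with black lines between groups) is plotted at 6 time points AHS (columns) for RNA-seq, Ribo-seq and TE, with red for higher and blue for lower values. The RNA-seq panel is paler than the others, and from 5 h AHS on the darkest blue is found for eEF1beta and eEF1gamma in the Ribo-seq (9 h, for eEF1gamma also 28 h AHS) and for eIF3i, eRF1 (9 h AHS) and eIF6 (28 and 38 h AHS) in TE.

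As a family the factors stayed close to their levels at no HS. The median log2 change of the 39 members in the RNA-seq was 0.02, 0.11, 0.07, 0.13 and 0.11 in time order from 5 to 38 h AHS, while all genes had 0.05, 0.07, 0.02, 0.07 and 0.06. The Ribo-seq medians were -0.13, -0.15, 0.01, -0.13 and 0.02, below 0 at 5, 9 and 28 h AHS, and 31 of the 39 lay below 0 at 9 h AHS against 3015 of the 5997 genes. In TE the medians were -0.14, -0.26, -0.05, -0.30 and -0.14, while all genes had -0.09, -0.06, 0.02, -0.13 and -0.10. TE was below no HS for 34 of 39 members at 9 h AHS and for 36 of 39 at 28 h AHS, where it was so for 3366 and 4019 of the 5997 genes. After rescaling all time points to 1 median FPKM the TE medians of the factors were -0.05, -0.23, -0.08, -0.18 and -0.03, and their RNA-seq medians -0.04, 0.05, 0.05, 0.07 and 0.04. For a single member the standard error of a log2 change had a median of 0.20 (RNA-seq), 0.22 (Ribo-seq) and 0.30 (TE).

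The ribosomal proteins had their lowest TE medians at the same time points as the factors, 9 and 28 h AHS, and lower ones. The 89 cytosolic ribosomal proteins over 10 FPKM had median log2 changes in TE of -0.40, -0.27 and -0.59 for 9, 18 and 28 h AHS, and in the Ribo-seq 28 of them (9 h AHS) and 20 (28 h AHS) were past 1.6-fold lower. The 20 cytosolic aminoacyl-tRNA synthetases, which charge the tRNAs that eEF1alpha delivers, had medians of -0.04, 0.03 and -0.06 in TE at these time points, and 0 of the 20 were past 1.6-fold in either assay from 5 h AHS on. In the share of summed FPKM over the genes of both tables the factors made up between 2.28% and 2.68% of the RNA-seq and between 0.92% and 1.17% of the Ribo-seq. The Ribo-seq share was 1.03% at no HS and 1.17% at both 9 and 28 h AHS, higher than at no HS while the median log2 change was below 0. The summed footprints of the factors were lower then, at 17930 (9 h AHS) and 18628 FPKM (28 h AHS) against 19868 FPKM at no HS. The sum over all genes was lower too, at 1.54e+06 and 1.59e+06 against 1.94e+06 FPKM. The ribosomal proteins made up 25.0% and 25.3% of it, against 34.2% at no HS.

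**Figure D2:**
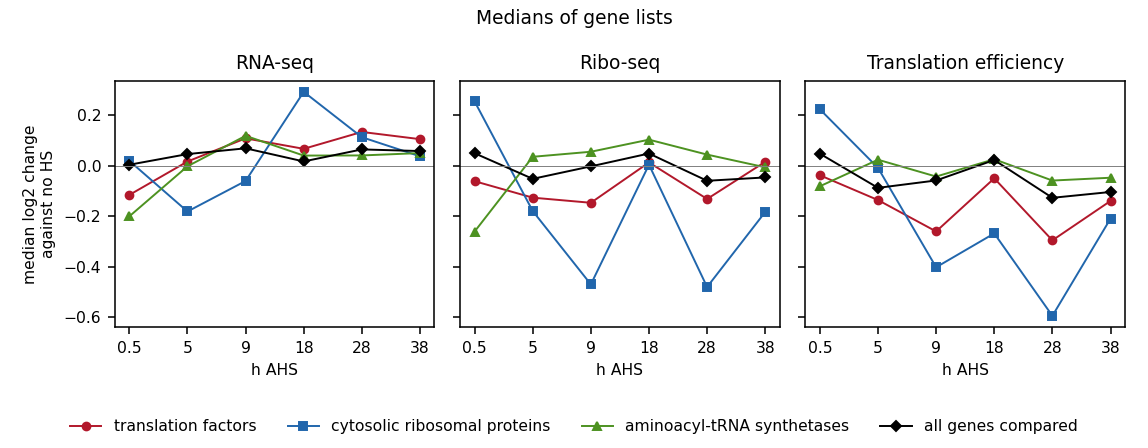
The median log2 change against no HS (vertical axis) at 6 time points AHS (horizontal axis, in order and not to scale) is plotted for 39 translation factors, 89 cytosolic ribosomal proteins, 20 aminoacyl-tRNA synthetases and all 5997 genes compared. In TE the factors lie between all genes and the ribosomal proteins at 9, 18 and 28 h AHS, with -0.26, -0.05 and -0.30.

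The elongation factors hold the most abundant member in both assays, eEF1alpha1, and the 2 members whose footprints were past 1.6-fold lower from 5 h AHS on with bounds that did not overlap, eEF1beta and eEF1gamma. eEF1alpha1 (chromosome 2R, 11891135 to 11895762), the GTPase that carries aminoacyl-tRNA to the ribosome, had RNA-seq values of 3318, 2834, 2937, 3374, 3387, 3933 and 3958 FPKM in the order of no HS, 0.5, 5, 9, 18, 28 and 38 h AHS, which is kept below wherever 7 values follow each other. Its Ribo-seq values were 4839, 5288, 4707, 4690, 5587, 4877 and 5161 FPKM. All of its bounds overlapped those at no HS, which reached from 3369 to 6308 FPKM in the Ribo-seq. At no HS its RNA-seq bounds lay above those of eEF2, the next member in order. In the Ribo-seq its bounds overlapped those of eIF1 (2202 to 3421 FPKM), the next member there.

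eEF1beta (chromosome 2R, 16868222 to 16869280) is one of the subunits that exchange GDP for GTP on eEF1alpha. It had 717 FPKM in the Ribo-seq at no HS (95% bounds 562 to 872), then 761, 591, 433, 671, 542 and 766 FPKM at 0.5 to 38 h AHS. The value at 9 h AHS (338 to 528) lay below the bounds at no HS, a log2 change of -0.73 ± 0.22 (SE from the bounds), and by 18 h AHS the values overlapped again. The mRNA stayed between 458 and 598 FPKM. TE was 1.34 at no HS and 0.83 at 9 h AHS, a log2 change of -0.69 ± 0.29.

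eEF1gamma (chromosome 3R, 29220172 to 29222109), which holds the exchange subunits together, behaved alike at 9 h AHS and was low again at 28 h AHS. Its Ribo-seq values were 498 FPKM at no HS (391 to 606) and 487, 376, 295, 418, 310 and 371 FPKM afterwards. The bounds at 9 h (231 to 359) and at 28 h AHS (243 to 378) lay below those at no HS, with log2 changes of -0.76 ± 0.22 and -0.68 ± 0.22. Rescaled to the same median, the change at 28 h AHS was -0.63 and no longer past 1.6-fold. The mRNA started from 910 FPKM and stayed between 728 and 842 FPKM after the heat shock, so that TE was 0.55 (no HS), 0.36 (9 h AHS) and 0.37 (28 h AHS).

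Lower footprints past 1.6-fold at 9 h AHS were found for 3 of 40 members (7.86% of all genes), and at 28 h AHS for 1 (4.4% of all genes). Markers of the ovarian muscle sheath (Mhc, Mlc2, up and Act57B, none at 0) were also low in their summed footprints then. The sums were 386, 415, 271, 216, 350, 270.5 and 303 FPKM in the Ribo-seq. Mhc went the other way, with 14.4 FPKM at no HS against 28.7 (9 h AHS) and 20.3 FPKM (28 h AHS), and Act57B had 193, 77.5 and 128 FPKM. The yolk and eggshell genes Yp1, Yp2, Yp3 and Vm26Aa of late follicle cells, also none at 0, ranged from 28391 to 109379 FPKM in sum, with 69916 FPKM before the heat shock, 28849 FPKM 9 h after it and 55010 FPKM 28 h after it. In the RNA-seq the sheath markers summed to 1221 (no HS), 969 (9 h AHS) and 1268 FPKM (28 h AHS). The 4 yolk and eggshell genes summed to 14958, 19616 and 30958 FPKM in the RNA-seq at the same time points. The part of either cell type in the footprints of eEF1beta and eEF1gamma was not tested.

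eEF1delta (chromosome 2L, 10232507 to 10234450), the other exchange subunit, had few mRNAs and many footprints. Its RNA-seq values were 88.7, 82.8, 101, 117, 106, 110 and 114 FPKM from no HS to 38 h AHS, and its Ribo-seq values 768, 551, 646, 648, 771, 842 and 761 FPKM. Its TE of 8.65 at no HS was the highest among the 39 members. At 28 h AHS the ratio of its footprints to those of eEF1gamma was 2.71, against 1.54 at no HS.

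eEF2 (chromosome 2L, 21677913 to 21682164), the translocase, stayed level in both assays. It was at 2056, 1818, 1922, 2104, 2152, 2256 and 2179 FPKM in the RNA-seq and at 1301, 1394, 1412, 1468, 1490, 1368 and 1552 FPKM in the Ribo-seq. eEF5, the hypusine-carrying factor that helps ribosomes over stretches such as polyproline, had its largest mRNA value at 18 h AHS, 1164 FPKM against 822 FPKM at no HS, a log2 change of 0.50 ± 0.20 with overlapping bounds. Its footprints were at 2271, 2050, 1993, 1688, 2292, 2005 and 2296 FPKM, and the lowest TE change, -0.60 ± 0.30 at 9 h AHS, was not past 1.6-fold.

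**Figure D3:**
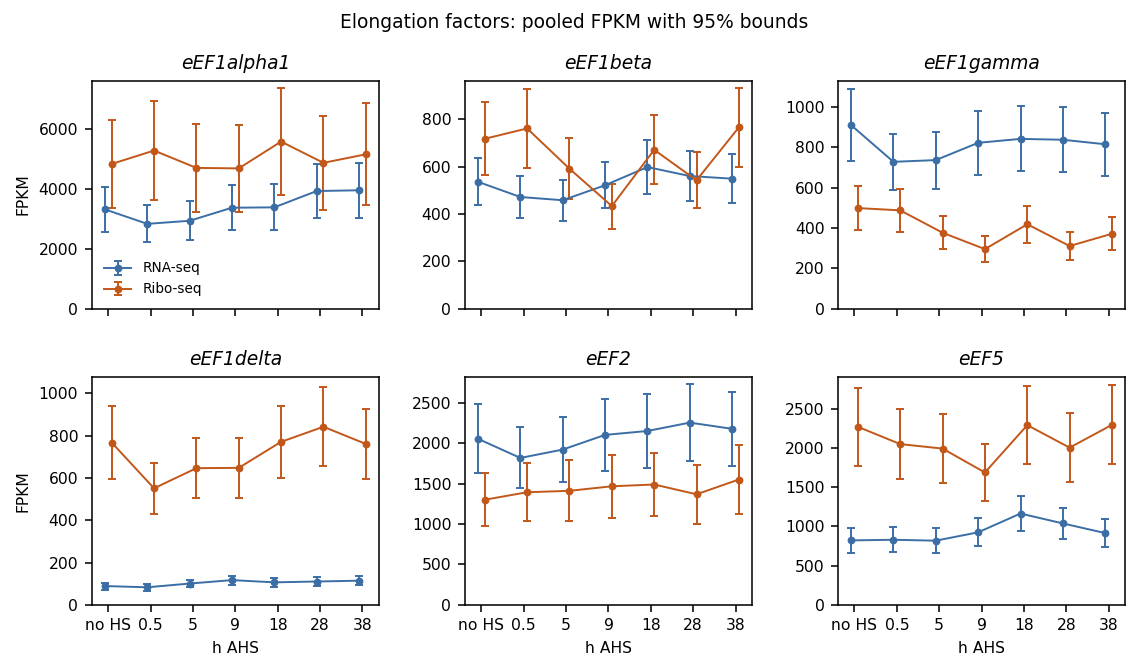
FPKM (vertical axes, linear, from 0) of 6 elongation factor genes is plotted at no HS and 6 time points AHS (horizontal axis, in order and not to scale), with the RNA-seq in blue, the Ribo-seq in orange and the deposited 95% bounds as bars. The Ribo-seq bars of eEF1beta at 9 h AHS and of eEF1gamma at 9 and 28 h AHS lie below their bars at no HS, while eEF1alpha1 and eEF2 overlap throughout.

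Among the factors of scanning and start codon selection, eIF1 was the most abundant. eIF1 (chromosome 3L, 3223341 to 3224650) was at 454, 380.5, 400.4, 453, 536, 533 and 450 FPKM in the RNA-seq and at 2812, 2167, 2098, 2734, 3024, 2558 and 2205 FPKM in the Ribo-seq. Its bounds overlapped those at no HS throughout. Its TE at no HS was 6.20, and that of its partner eIF1A 5.04. The footprints of eIF1A were at 620, 563, 429, 454, 709, 618 and 694 FPKM, low at 5 and 9 h AHS and with bounds that overlapped throughout. eIF5, which makes eIF2 hydrolyse its GTP once the start codon is found, stayed between 110 and 133 FPKM and between 79.8 and 92.2 FPKM.

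The 3 subunits of eIF2 had similar levels, and all had less TE at 5, 9, 28 and 38 h AHS than at no HS without passing 1.6-fold. eIF2alpha (chromosome X, 16445176 to 16446993), the subunit that stress kinases phosphorylate, was at 94.98, 87.5, 96.2, 104, 93.9, 89.5 and 95.3 FPKM in the RNA-seq. Its Ribo-seq values were 202, 201, 151, 143, 203, 141 and 151 FPKM. They were low at 5, 9, 28 and 38 h AHS and level with no HS at 0.5 and 18 h AHS, with bounds that overlapped throughout. The TE changes at 9 h AHS were -0.63 for eIF2alpha, -0.66 for eIF2beta and -0.37 for eIF2gamma, and at 18 h AHS the first 2 were at 0.02 and -0.01. The RNA-seq loci of all 3 in the table also hold a neighbouring gene, rngo, Gcn5 with ver, and Su(var)3-9.

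The 5 subunits of eIF2B, the exchange factor of eIF2, were the rarest of the complexes, with 20.7 to 35.0 FPKM in the RNA-seq and 29.3 to 70.8 FPKM in the Ribo-seq at no HS. eIF2Balpha (chromosome 3R, 29934582 to 29935888) had the most mRNA at no HS, and stayed between 35.0 and 42.0 FPKM in the RNA-seq and between 37.5 and 49.6 FPKM in the Ribo-seq. The median log2 change of the 5 in the RNA-seq lay between 0.13 and 0.20 from 5 to 38 h AHS, above 0 for all 5 subunits at each of these time points, and 0 were past 1.6-fold. In time order 24, 33, 32, 33 and 35 of the 39 members were above 0 there. Among the 5997 genes it was 3614, 3747, 3197, 3741 and 3742. The RNA-seq loci of all 5 subunits also hold other genes. eIF2D (chromosome 3R, 29149896 to 29151794), known for bringing tRNA to ribosomes independently of eIF2 and for recycling, was near the limit of 10 FPKM. Its RNA-seq values were 9.65, 7.33, 10.9, 10.7, 11.2, 12.1 and 11.9 FPKM.

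The eIF3 complex, the platform on the small subunit, varied little in mRNA, with a highest to lowest ratio of 1.04 (eIF3j) to 1.25 (eIF3k) over no HS and the 5 later time points, and in footprints with one of 1.14 (eIF3a) to 1.76 (eIF3j). eIF3b (chromosome 2R, 17536213 to 17539142), the subunit with the most mRNA at no HS, was at 235, 221, 229, 241, 236, 253 and 243 FPKM in the RNA-seq and at 184, 187, 168, 175, 193, 152 and 169 FPKM in the Ribo-seq. Over the 13 eIF3 genes above 10 FPKM the log2 change in the RNA-seq from 5 to 38 h AHS lay between -0.04 and 0.32. In the Ribo-seq the median was -0.15 at 9 h AHS, with 12 of 13 below 0, and -0.16 at 28 h AHS. In TE all 13 were below 0 at 28 h AHS, with a median of -0.31. The lowest single values were at 9 h AHS. eIF3i had 259 FPKM in the Ribo-seq at no HS and 171 FPKM at 9 h AHS, and its TE change of -0.77 ± 0.30 was past 1.6-fold. eIF3j, which is loosely bound and is known to help take ribosomes apart, had 176 and 123 FPKM at these time points, a TE change of -0.53.

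Of the helicase and its scaffolds, none was past 1.6-fold. eIF4A (chromosome 2L, 5981764 to 5985909) was level in both assays, at 1334, 1297, 1224, 1274, 1397, 1514 and 1415 FPKM and at 1156, 1140, 1203, 1182, 1224, 1093 and 1273 FPKM. eIF4G1 (chromosome 4, 915297 to 930715), the main scaffold, had footprints at 161, 124, 209, 232, 183, 172 and 169 FPKM. They were highest at 9 h AHS, with a log2 change of 0.52 ± 0.23 that did not pass 1.6-fold and bounds of 179 to 284 FPKM that overlapped those at no HS (126 to 196). This was the highest log2 change from 5 h AHS on in the Ribo-seq among the 39 members, at the time point at which the values of eEF1beta and eEF1gamma were lowest. Its mRNA was at 251 FPKM at no HS and 287 FPKM at 9 h AHS.

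eIF4G2 (chromosome 3R, 23808285 to 23819237), a second scaffold known in Drosophila for its need in male meiosis, had the largest RNA-seq change from 5 h AHS on among the 39 members. It was at 82.6, 89.9, 68.0, 61.2, 57.5, 64.7 and 89.6 FPKM, with a log2 change of -0.52 ± 0.24 at 18 h AHS, not past 1.6-fold, and bounds that overlapped. Its footprints were at 29.4, 28.2, 22.3, 26.2, 20.6, 28.4 and 30.9 FPKM. The ratio of eIF4G1 to eIF4G2 was thus 3.04 in the RNA-seq at no HS, 4.70 at 9 h and 2.65 at 38 h AHS, and 5.48, 8.84 and 5.49 in the Ribo-seq. The RNA-seq locus of eIF4G2 holds 5 other genes.

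**Figure D4:**
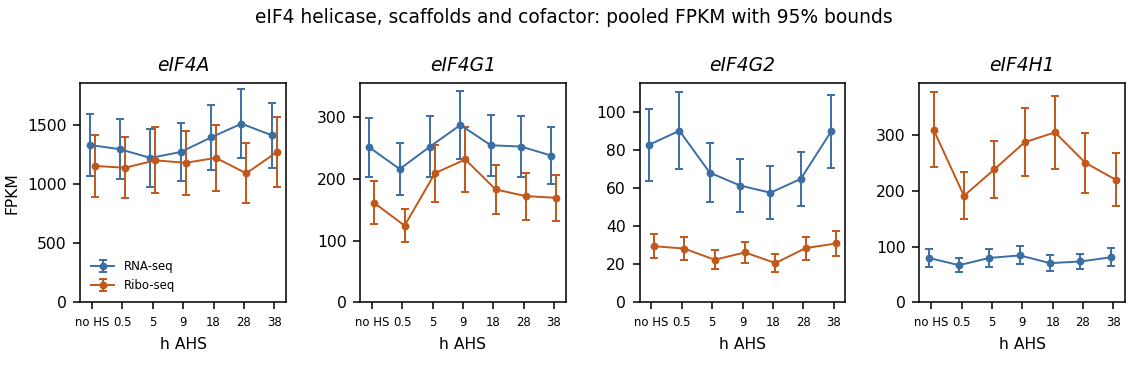
FPKM (vertical axes, linear, from 0) of the helicase eIF4A, the scaffolds eIF4G1 and eIF4G2 and the cofactor eIF4H1 is plotted at no HS and 6 time points AHS (horizontal axis, in order and not to scale), with the RNA-seq in blue, the Ribo-seq in orange and the 95% bounds as bars. The Ribo-seq of eIF4G1 reaches 232 FPKM at 9 h AHS and the RNA-seq of eIF4G2 is lowest at 18 h AHS with 57.5 FPKM, both with bars that overlap those at no HS.

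For subunit joining and its control, TE was past 1.6-fold only for eIF6. eIF5B (chromosome 3L, 3428658 to 3460977), the joining GTPase, was at 46.8, 39.4, 42.2, 45.2, 39.1, 41.7 and 46.9 FPKM in the RNA-seq and at 54.4, 39.3, 35.6, 43.9, 49.7, 44.6 and 41.4 FPKM in the Ribo-seq. All 6 later Ribo-seq values were below that at no HS with overlapping bounds, the lowest at 5 h AHS with a log2 change of -0.61. eIF6, which keeps the large subunit from joining too early, had a TE of 2.98 at no HS, 1.76 at 28 h and 1.81 at 38 h AHS. Its TE changes of -0.76 ± 0.47 and -0.72 ± 0.46 were past 1.6-fold with wide errors, and its locus holds ytr in both tables. TE was lower past 1.6-fold for 3 of 39 members at 9 h AHS (7.86% of all genes) and for 1 at 28 h AHS (5.08%).

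Both release factors kept their mRNA level within 1.6-fold. eRF3 (chromosome 2L, 12434452 to 12441279), the GTPase, was at 167, 144, 165, 171, 177, 205 and 206 FPKM in the RNA-seq and at 237, 159, 204, 223, 265, 284 and 299 FPKM in the Ribo-seq. eRF1, which reads the stop codon, was at 112, 115.5, 112, 126, 129, 140.1 and 133 FPKM and at 193, 149, 150.4, 128, 208, 202 and 194.8 FPKM. The footprints of eRF1 were lowest at 9 h AHS, where its TE change of -0.77 ± 0.30 was past 1.6-fold and that of eRF3 was -0.12, a difference that was not tested. The ratio of eRF3 to eRF1 footprints was 1.23 at no HS, 1.74 at 9 h and 1.28 at 18 h AHS.

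Of the 5 complexes compared, eEF1B was the one in which the footprints of the subunits lay much closer together than the mRNAs. FPKM is per transcript length in the RNA-seq and per coding length in the Ribo-seq, and TE was lower for longer coding sequences over all genes, as given further on, so the contrast between the assays is not free of length. The longest coding lengths are 666 (eEF1beta), 768 (eEF1delta) and 1293 nucleotides (eEF1gamma). In eEF1B the highest of the 3 subunits was 10.3 times the lowest in the RNA-seq at no HS (910 FPKM for eEF1gamma and 88.7 FPKM for eEF1delta) and 1.54 times in the Ribo-seq (768 FPKM for eEF1delta and 498 FPKM for eEF1gamma). The order of the subunits was inverted between the assays, but only in the RNA-seq did their bounds not overlap. At 28 h AHS the ratio was 7.60 for the mRNAs and 2.71 for the footprints. Over the 12 core subunits of eIF3 the ratio was 2.16 and 2.17 at no HS, over eIF2 1.196 and 1.27, over eIF2B 1.69 and 2.42, and between eRF3 and eRF1 1.49 and 1.23. eEF1alpha1 had 9.71 times the footprints of eEF1gamma at no HS and 15.9 times at 9 h AHS.

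**Figure D5:**
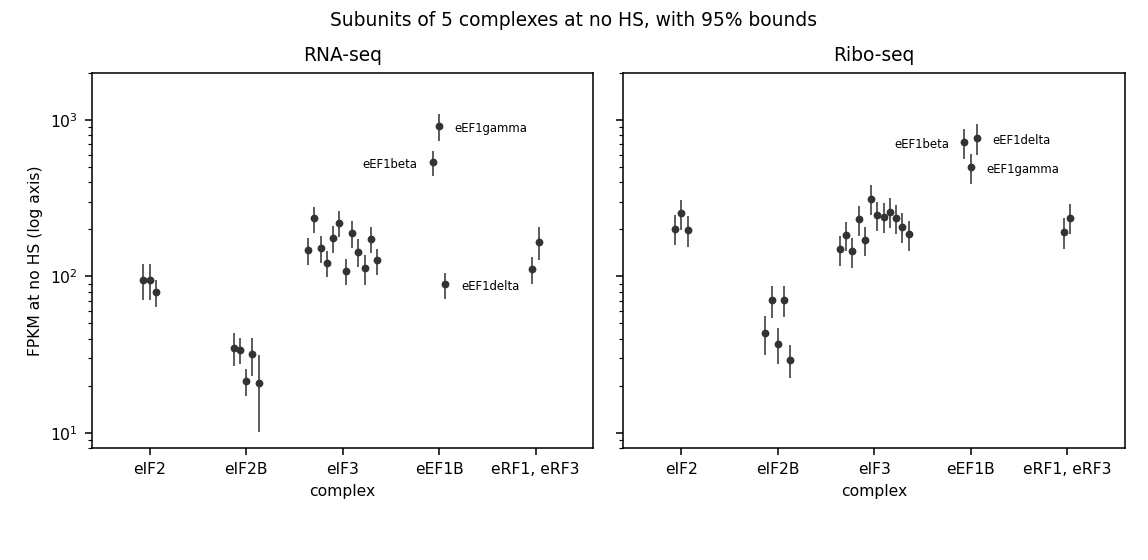
FPKM at no HS (vertical axis, log scale) is plotted for each subunit of eIF2, eIF2B, eIF3, eEF1B and the release factors (horizontal axis), with RNA-seq on the left, Ribo-seq on the right and 95% bounds as bars. The 3 eEF1B subunits lie between 88.7 and 910 FPKM in the RNA-seq and between 498 and 768 FPKM in the Ribo-seq.

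TE at no HS ran from 0.36 for eIF4G2 to 8.65 for eEF1delta over the 39 members, with a median of 1.46, and the median of the 5997 genes was 1.40. The 4 members over 3 were eEF1delta, eIF1, eIF1A and eIF4H1, with a longest annotated coding length between 330 and 1164 nucleotides. The 6 members under 0.8 were eIF4G2, eEF1gamma, eEF2, eIF4G1, eIF5 and eIF3b, with coding lengths between 1293 and 6216 nucleotides. TE was lower where the coding sequence was longer, with Spearman's rho of -0.66 over the 39 members and of -0.73 over 5783 genes. This is a description across genes of 1 pair of pooled values, in which Ribo-seq FPKM is per coding length and RNA-seq FPKM per transcript length. The Ribo-seq locus equalled the annotated coding span in 44 of 46 members.

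Where a factor has a duplicate gene, only 1 of the pair was expressed at a like level to the rest of the complex, apart from eIF4G1 and eIF4G2. eEF1alpha2 was between 2.54 and 3.76 FPKM in the RNA-seq, eIF3f2 between 0.87 (28 h AHS) and 2.57 FPKM (no HS), and eIF3d2, eIF3g2 and eIF4H2 between 0 and 0.02 FPKM. Their partners at no HS were at 3318 FPKM (eEF1alpha1), 221 FPKM (eIF3f1), 123 FPKM (eIF3d1), 109 FPKM (eIF3g1) and 79.7 FPKM (eIF4H1). In the Ribo-seq eIF3d2 was listed at 0 throughout, eIF3g2 and eIF4H2 were at or below 0.55 FPKM, and eEF1alpha2 and eIF3f2 lay between 1.97 and 5.90 FPKM and between 1.84 and 5.76 FPKM. eEFSec was between 7.30 and 9.44 FPKM in the RNA-seq. eIF4B, a helper of eIF4A, was at 0.70 FPKM in the RNA-seq and 10.8 FPKM in the Ribo-seq at no HS. Its Ribo-seq values were past 1.6-fold lower at 9 h (6.61 FPKM) and 38 h AHS (5.90 FPKM) with bounds that overlapped. Its RNA-seq locus runs from 27821333 to 27881412 of chromosome 3L and holds 2 other genes, while the gene itself runs from 27842669 to 27858271. No TE is given for eIF4B, because it was not over 10 FPKM in the RNA-seq at any time point.

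The heat shock itself was followed at 0.5 h AHS, where 2 of 40 members had lower footprints past 1.6-fold, against 7.54% of all genes. eIF4H1 (chromosome X, 16448665 to 16454972), a further cofactor of eIF4A, was at 310, 191, 239, 287, 305, 250 and 220 FPKM in the Ribo-seq. Its bounds at 0.5 h AHS (149 to 233) lay below those at no HS (242 to 377), with a log2 change of -0.70 ± 0.22, and from 5 h AHS on they overlapped. Its mRNA was at 79.7, 66.7, 79.8, 84.3, 70.4, 73.4 and 81.0 FPKM. eIF2D had 13.9 FPKM at no HS and 8.04 FPKM at 0.5 h AHS with overlapping bounds. eRF3 had a log2 change of -0.58 and eEF1delta of -0.48, not past the limit. At this time point the ribosomal proteins went the other way, with a median log2 change of 0.26 in the Ribo-seq against -0.06 for the 39 factors and -0.26 for the 20 aminoacyl-tRNA synthetases.

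Of 13 regulators and recycling factors of translation, all over 10 FPKM, 0 were past 1.6-fold in either assay from 5 to 38 h AHS. Over all genes the shares were 5.84% (RNA-seq) and 21.9% (Ribo-seq). Footprints of Gcn2 were over 10 FPKM only at 0.5 h AHS (12.2 FPKM), so it could not be called in the Ribo-seq later. Of the 5997 genes, which leave out heat shock genes, 146 (RNA-seq) and 479 (Ribo-seq) were past 1.6-fold higher at 0.5 h AHS. At 0.5 h AHS the eIF2alpha kinase PEK was past 1.6-fold higher in both assays, at 61.7 FPKM against 29.8 FPKM in the RNA-seq and 36.6 FPKM against 11.6 FPKM in the Ribo-seq. pAbp, the poly(A)-binding protein that eIF4G binds, had 649.7 FPKM in the Ribo-seq there against 390.2 FPKM at no HS, also past 1.6-fold, and 442 FPKM at 5 h AHS. Thor, the inhibitor of eIF4E, stayed between 189.6 and 285 FPKM in the RNA-seq and ranged from 750.5 (28 h AHS) to 1276 FPKM (0.5 h AHS) in the Ribo-seq. Of the 6 genes for the modification of eEF5 and eEF2, 3 had values, Dph1, Dph5 and nero, the last being the enzyme that completes the hypusine of eEF5. nero was at 37.4 FPKM at no HS and between 36.4 and 43.4 FPKM from 5 h AHS on in the RNA-seq. Of the 8 factors of mitochondrial translation 7 had values and 5 were over 10 FPKM in both assays. These 5 had a median log2 change in TE of -0.37 (9 h AHS) and -0.42 (28 h AHS), with all 5 below 0. At both time points 0 of the 5 were past 1.6-fold, and mRRF1 was past 1.6-fold lower in TE at 18 h AHS. The median leaves out mRF1 and mRRF2, which were over 10 FPKM in the Ribo-seq only. Footprints of mRF1 went the other way, with log2 changes of 0.83 (9 h AHS, past 1.6-fold higher) and 0.36 (28 h AHS). For mRRF2 the footprint changes were 0.37 and -0.005, not past 1.6-fold.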

How the data were processed

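RNA-seq (rRNA removed with RNase H, directional paired-end libraries) and Ribo-seq (RNase I footprints pelleted through sucrose, with cycloheximide) were made from whole ovaries. The authors trimmed adapters with Trim Galore, collapsed identical Ribo-seq reads, removed reads of non-coding RNAs with Bowtie2 (RNA-seq) or Bowtie (Ribo-seq), mapped the rest to dm6 with STAR and deposited FPKM values with 95% bounds from Cuffdiff 2.2.1, pooled over 2 replicates. The library normalization is not given in the sources used here.

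From these tables log2 changes against no HS, TE and counts past 1.6-fold were computed with Python 3.11.15, numpy 2.4.6 and pandas 2.3.3. Errors of log2 changes combine the bounds of both values as independent. From 5 h AHS on, 125 genes that the paper lists as heat shock genes or contaminants were left out of the all-gene counts, and for Ribo-seq and TE also 213 genes that changed over 3-fold at 0.5 h AHS, 0 members among them. Lists were described by medians with no test. Members and lists were chosen with earlier results of these data known. Named in full were members past 1.6-fold with separate bounds, the most abundant member by RNA-seq at no HS in each role group, and paralog pairs; eIF3i, eIF3j, eIF6, eRF1, eIF1A, eIF5, the other elongation factors and eIF4B were added after their values were seen. Alternatives were a fold limit of 2, 20 FPKM or no minimum, a pseudocount of 1, rescaling to the same median, separate bounds, and members alone in their locus. RNA-seq loci of 24 members and Ribo-seq loci of 4 hold another gene.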

Additional observations from a re-analysis of the deposited data

How the results depend on the processing

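With a fold limit of 2, the counts of members past the limit from 5 to 38 h AHS became 0 in the Ribo-seq (from 3) and 0 in TE (from 4). Without an FPKM minimum they became 5 in the RNA-seq (from 0) and 6 in the Ribo-seq, since members below 10 FPKM, duplicate genes and eIF4B, then counted. Rescaled to the same median, 2 members were past the limit in TE. The other counts stayed within 1.5 times. The medians over members, 18 by assay and time point, shifted by between -0.07 and 0.12 under rescaling and between -0.07 and 0.08 for the 17 members alone in their locus, with 2 changes of sign under each. Rescaling moved the TE medians from -0.14 to -0.05 (5 h AHS), from -0.30 to -0.18 (28 h AHS) and from -0.14 to -0.03 (38 h AHS), and turned the RNA-seq median at 5 h AHS from 0.02 to -0.04 and the Ribo-seq median at 18 h AHS from 0.01 to -0.03. A pseudocount of 1 and a minimum of 20 FPKM changed no sign. For the single genes chosen after the values were seen, eEF1beta and eEF1gamma stayed past 1.6-fold at 9 h AHS under a pseudocount and under rescaling. No paired analysis was possible because each column pools both replicates, and for the same reason no replicate could be left out. Depth cannot be read from FPKM values, and members under 10 FPKM were not compared.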
